A study of Mus musculus with 2 samples.

Results

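Endothelial cells (ECs) of the mouse lung that carried much Vwf RNA and few arterial transcripts were drawn from single-cell RNA sequencing of whole-lung suspensions. Of 3032 cells in the deposited matrices, 2037 had 200 to 4000 detected genes and at most 5% of their UMIs (unique molecular identifiers, 1 for each captured RNA molecule) from mitochondrial genes. Among these, 1634 had a UMI of at least 2 of the 4 endothelial genes Cdh5, Pecam1, Cldn5 and Egfl7, and 211 of the 1634 also had at least 2 Vwf UMIs and fewer than 2 of the arterial genes Gja5, Bmx, Sulf1 and Fbln2. These 211 cells are called Vwf-high ECs, and the 1395 ECs with fewer than 2 Vwf UMIs and the same limit on arterial genes are called other ECs. The remaining 28 ECs had 2 or more arterial genes and are called arterial ECs. The cells were thus selected on their UMIs of Vwf and of the endothelial and arterial genes, whose values are given as a description only.

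Von Willebrand factor, the product of Vwf, is a large secreted protein that ECs store in Weibel-Palade bodies and release to tether platelets at sites of injury. In the lung it is abundant in ECs of veins and larger vessels and low in most alveolar capillaries. Pulmonary vein ECs are known for Slc6a2, the noradrenaline transporter, and for Vcam1, an adhesion receptor for leukocytes. Selp encodes P-selectin, which is kept in the same granules as von Willebrand factor and captures rolling leukocytes. These 3 genes are called the vein genes below and were not used to choose the cells. The capillary bed has general capillary ECs and aerocytes, which are large, thin cells at the gas-exchange surface marked by Car4, Ednrb and Apln.

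The lungs came from C57/B6 mice aged 2 to 4 months that were kept either in room air (normoxia) or in hypoxia for 3 weeks. Lung cells were dissociated mechanically and enzymatically, depleted of CD45-positive leukocytes and CD326-positive epithelial cells with magnetic beads, and sequenced with the 10x Genomics 3′ chemistry. Each condition was 1 library, and how many animals went into a library is not given in the labels. No difference between hypoxia and normoxia therefore has a replicate check, no test was run, and every interval below is a 95% interval that covers counting error only. Hypoxia, the library and its handling cannot be told apart.

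The normoxia library held 2223 cells with 7630683 UMIs and the hypoxia library held 809 cells with 2685345 UMIs. One cell barcode occurred in both libraries. The Vwf-high gate held 136 normoxia cells with 704037 UMIs and 75 hypoxia cells with 325066 UMIs. Their median depth was 4891 UMIs per cell in normoxia and 3596 in hypoxia, and they were deeper than the other ECs of the same library, with medians of 3305 and 2442.5. Vwf-high ECs made up 13.1% of ECs in normoxia (exact binomial interval 11.1 to 15.3%) and 12.6% in hypoxia (10.0 to 15.5%). The intervals of the 2 shares overlap almost completely.

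The gate on Vwf fell in a continuous distribution rather than in a gap. In normoxia 773 non-arterial ECs had no Vwf UMI, 108 had exactly 1 and were left outside, and 28 had exactly 2 and were the lowest inside. The same numbers in hypoxia were 467, 47 and 15. Within the gate the median cell had 5 Vwf UMIs in each library and the highest had 42 in normoxia and 77 in hypoxia. Summed over cells, Vwf stood at 1767 CPM (UMIs of a gene per 1000000 UMIs of the class) in normoxia and 2396 CPM in hypoxia, against 33.9 and 26.5 CPM in other ECs. On the arterial side of the gate, 23 of 136 normoxia and 19 of 75 hypoxia cells had 1 arterial gene, which was Fbln2 in 3 normoxia and 12 hypoxia cells. Each of the 4 endothelial genes was detected in at least 93.3% of Vwf-high ECs in both libraries.

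Slc6a2 and Vcam1 were concentrated in the Vwf-high ECs of both libraries, and Selp in those of the normoxia library when set against other ECs. Vwf (ENSMUSG00000001930) lies on chromosome 6 from 125546774 to 125686679 on the plus strand of GRCm38, the mouse build also known as mm10. Slc6a2 (ENSMUSG00000055368; chromosome 8, 92960079 to 93001667, plus strand) stood at 727 CPM in normoxia (exact Poisson interval 666 to 793) and at 185 CPM in hypoxia (141 to 238). In other ECs it stood at 3.46 CPM (11 UMIs) in normoxia and at 0.563 CPM (1 UMI) in hypoxia. The Vwf-high level was thus 210 times that of other ECs in normoxia (117 to 424) and 328 times in hypoxia (56.6 to 13164), the second ratio resting on a single UMI in other ECs.

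Vcam1 (ENSMUSG00000027962; chromosome 3, 116109949 to 116129688, minus strand) stood at 622 CPM (565 to 683) in normoxia and 111 CPM (77.6 to 153) in hypoxia. These levels were 38.8 times (29.0 to 53.0) and 15.1 times (7.84 to 31.1) those of other ECs. In the hypoxia other ECs 10 Vcam1 UMIs lay in 1 cell and 3 in all the rest, so the second ratio depends on that cell. Vcam1 is not restricted to ECs, and 61 of 99 normoxia cells in a fibroblast gate had a Vcam1 UMI. Slc6a2 was found in 1 of those 99 cells, whose median depth was 5019 UMIs, and in 0 of 11 cells of a leukocyte gate with a median of 3519 UMIs, against 59 of 136 Vwf-high ECs (43.4%) at a median of 4891.

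Selp (ENSMUSG00000026580; chromosome 1, 164115264 to 164150026, plus strand) was much sparser. It had 38 UMIs in 8 of 136 normoxia Vwf-high ECs, or 54.0 CPM, and 22 of those UMIs (57.9%) lay in 1 cell. Other ECs had 1 Selp UMI in normoxia and 2 in hypoxia. The normoxia arterial ECs had Selp in 4 of 20 cells, and the Vwf-high level was 0.624 times theirs (0.305 to 1.40). No Selp UMI was seen in the 75 hypoxia cells, which at 3 counts allows up to 9.23 CPM. Against that floor the level was at least 5.85-fold lower than in normoxia, and the exact interval of the ratio itself reached 0.221. At this depth Selp was thus seen in a small minority of the gate.

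The label of the gate was met in part. In normoxia 66 of 136 Vwf-high ECs had at least 1 vein gene (48.5%, 39.9 to 57.2%) and 39 had at least 2 (28.7%). In hypoxia 18 of 75 had at least 1 (24.0%, 14.9 to 35.3%) and 5 had at least 2 (6.67%). Among other ECs the share with at least 1 vein gene was 3.18% in normoxia and 0.973% in hypoxia. Seen from the vein genes, the gate took in 39 of the 42 normoxia ECs and 5 of the 6 hypoxia ECs that had 2 or more of them. Of the 20 normoxia arterial ECs, 7 had at least 1 vein gene and 3 had at least 2, so the vein genes were not confined to the gate. Slc6a2 had no UMI in the arterial ECs of either library, and what these cells carried was Vcam1 or Selp.

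Vein genes were found together in part of these cells. All 8 normoxia cells with Selp also had both Slc6a2 and Vcam1, and Slc6a2 and Vcam1 were found together in 39 of 136 normoxia cells, where 59 had Slc6a2 and 46 had Vcam1. In hypoxia the pair was found together in 5 cells, of 16 with Slc6a2 and 7 with Vcam1.

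**Figure D1:**
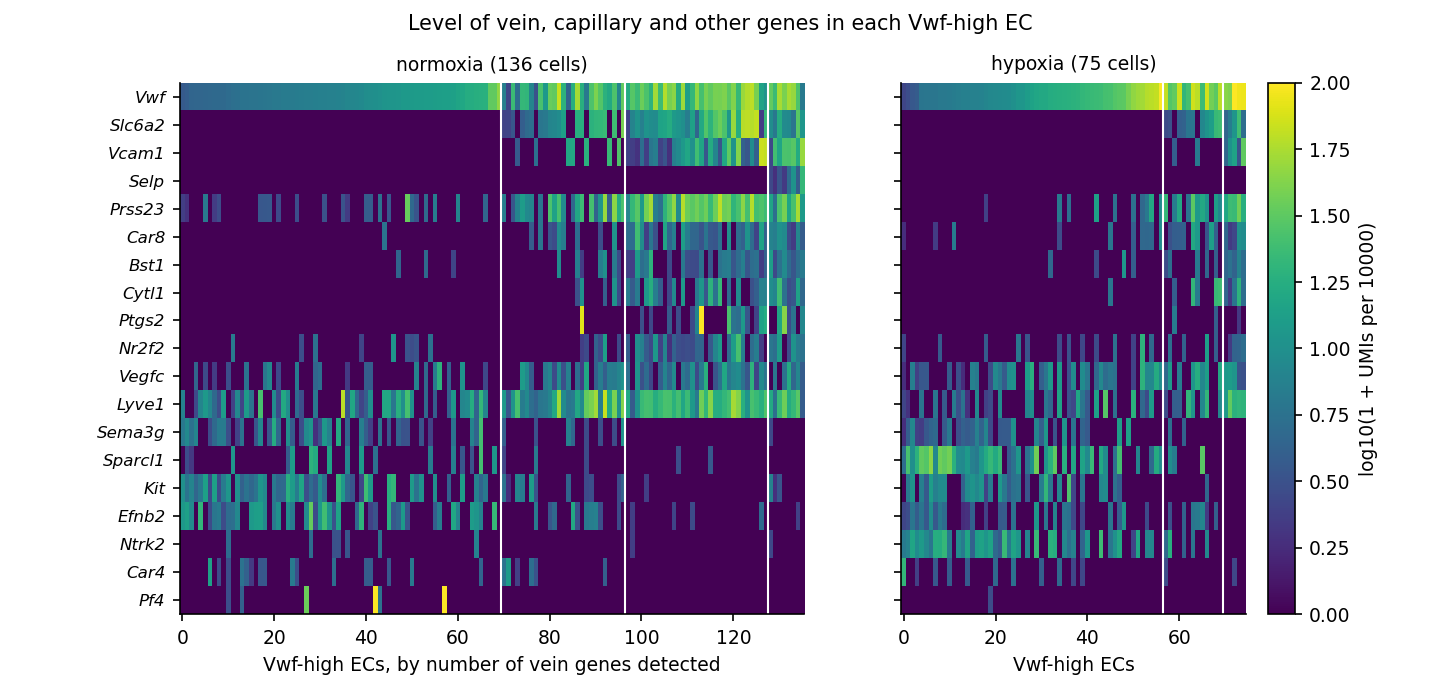
Heat map of marker genes in every Vwf-high EC, with 1 panel for each library. Each column is 1 cell, columns run from left to right by the number of vein genes detected, from 0 to 3 (white lines mark the steps), and color is log10(1 + UMIs per 10000 UMIs of the cell) on a scale from 0 to 2. The cells with 2 or 3 vein genes, 39 in normoxia and 5 in hypoxia, also carry Prss23, while Sparcl1, Kit, Sema3g and Efnb2 appear mostly in cells with fewer vein genes.

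How far a Vwf-high EC carried vein genes followed its number of Vwf UMIs. The ranges used here were chosen after the data had been seen. Cells with 10 or more Vwf UMIs were deeper than those with 2, with medians of 5566 and 3872 UMIs in normoxia and 4681 and 3347 in hypoxia. Depth did not rise at every step, with medians at 3 or 4 and at 5 to 9 Vwf UMIs of 4870 and 4622 in normoxia and 2800 and 4041 in hypoxia. Of the normoxia cells with 2 Vwf UMIs, 4 of 28 had a vein gene (14.3%), and of those with 3 or 4 it was 4 of 34 (11.8%). The share was 15 of 29 (51.7%) at 5 to 9 Vwf UMIs and 43 of 45 (95.6%, 84.9 to 99.5%) at 10 or more. In normoxia nearly every cell at the upper end of the gate was thus positive for a vein gene, and few at its lower end were.

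In hypoxia the share was again highest at 10 or more Vwf UMIs, and it was lower than in normoxia in every range. The shares were 0 of 15 at 2 Vwf UMIs (exact binomial upper limit 21.8%), 2 of 19 at 3 or 4 (10.5%), 3 of 19 at 5 to 9 (15.8%) and 13 of 22 at 10 or more (59.1%, 36.4 to 79.3%). At 10 or more Vwf UMIs the intervals of the hypoxia and normoxia shares do not overlap, and in the other ranges they do.

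**Figure D2:**
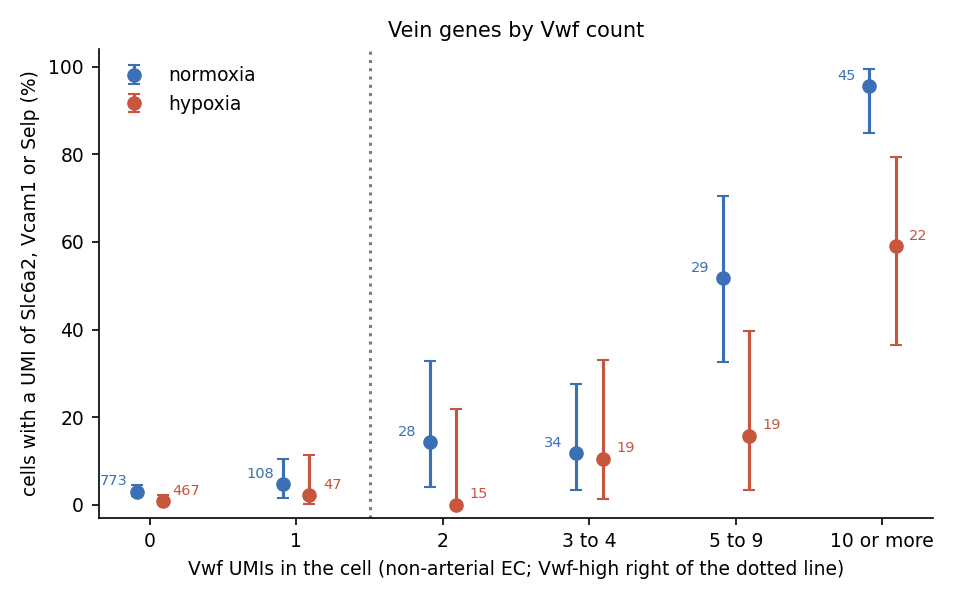
Share of non-arterial ECs with at least 1 UMI of Slc6a2, Vcam1 or Selp (vertical axis, percent) by the number of Vwf UMIs in the cell (horizontal axis), for the normoxia and hypoxia libraries. Points are shares and bars are exact 95% binomial intervals, and the share reaches 95.6% in normoxia and 59.1% in hypoxia at 10 or more Vwf UMIs.

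A list of 12 further genes linked to vein ECs was not used by the gate, but it was drawn up with earlier results of these data known and is not independent evidence. Of the 11 that had at least 30 UMIs over both classes of cells, 10 were at least 2-fold higher in Vwf-high than in other ECs in normoxia, and the same 10 in hypoxia. Across all genes tested, 2.79% in normoxia and 2.95% in hypoxia were at least 2-fold higher. The median log2 ratio of the list was 2.18 in normoxia and 2.45 in hypoxia, beside -0.07 and 0.00 over all 9191 and 7503 genes tested. Deeper cells are more likely to reach 2 Vwf UMIs, and the part of depth in these ratios was not tested.

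Prss23, a secreted serine protease (ENSMUSG00000039405; chromosome 7, 89507783 to 89527187, minus strand), was the most abundant gene of that list. It stood at 1231 CPM in normoxia and 440 CPM in hypoxia Vwf-high ECs, against 65.7 and 6.76 CPM in other ECs, ratios of 18.8 (16.1 to 21.9) and 65.1 (36.1 to 129). It had no UMI in the 99 normoxia fibroblast-gate cells, an exact binomial upper limit of 3.66%.

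Car8, a carbonic anhydrase-related protein (ENSMUSG00000041261; chromosome 4, 8143362 to 8239041, minus strand), stood at 222 and 126 CPM, 50.4 and 22.4 times the other ECs. Bst1, an ADP-ribosyl cyclase of the cell surface (ENSMUSG00000029082; chromosome 5, 43818885 to 43843986, plus strand), stood at 168 and 89.2 CPM, 59.3 and 26.4 times. The adhesion molecule Amigo2 was 15.4 and 14.9 times as high. Each of these genes was found in a minority of Vwf-high ECs, at most 49 of 136 in normoxia.

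Regulators of vein identity showed smaller ratios. Nr2f2, the nuclear receptor COUP-TFII that maintains venous fate, stood at 190 CPM in normoxia and 126 CPM in hypoxia, 3.24 times (2.58 to 4.07) and 5.46 times (3.46 to 8.64) the other ECs. Nrp2, a co-receptor for VEGF-C, was 3.22 and 8.33 times as high, and its ligand Vegfc was 7.33 and 2.66 times as high. Ephb4, the receptor for the arterial ligand ephrin-B2, was the tested gene of the list below 2-fold, at 1.19 (0.949 to 1.48) and 1.28 (0.985 to 1.66). Ackr1, an atypical chemokine receptor of postcapillary venules, had 1 UMI in all Vwf-high ECs of both libraries.

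Over all genes, 256 of 9191 were at least 2-fold higher and 557 (6.06%) at least 2-fold lower in Vwf-high than in other ECs in normoxia. In hypoxia 221 of 7503 were higher and 485 (6.46%) lower. In both libraries 67 genes were higher and 103 lower, of 7460 tested in both. The 10 that ranked highest by the interval bound nearest to 1 in the weaker library, among genes found in at least 10 Vwf-high ECs, were Slc6a2, Cytl1, Prss23, Car8, Bst1, Amigo2, Vcam1, Samd5, Ptprr and Dnm3. Cytl1, a small secreted protein (ENSMUSG00000062329; chromosome 5, 37735519 to 37739820, plus strand), stood at 220 and 123 CPM, 100 times (47.4 to 253) and 43.7 times (17.3 to 142) the other ECs. The receptor tyrosine phosphatase Ptprr was 8.67 and 6.02 times as high, and Dnm3, a dynamin, 12.9 and 5.86 times. Samd5 was 8.14 and 26.3 times as high. Normoxia arterial ECs carried more Cytl1 than Vwf-high ECs, whose level was 0.374 times theirs (0.280 to 0.505). In hypoxia the Cytl1 ratio to arterial ECs had no finite value, and the lower end of its interval was 1.09.

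**Figure D3:**
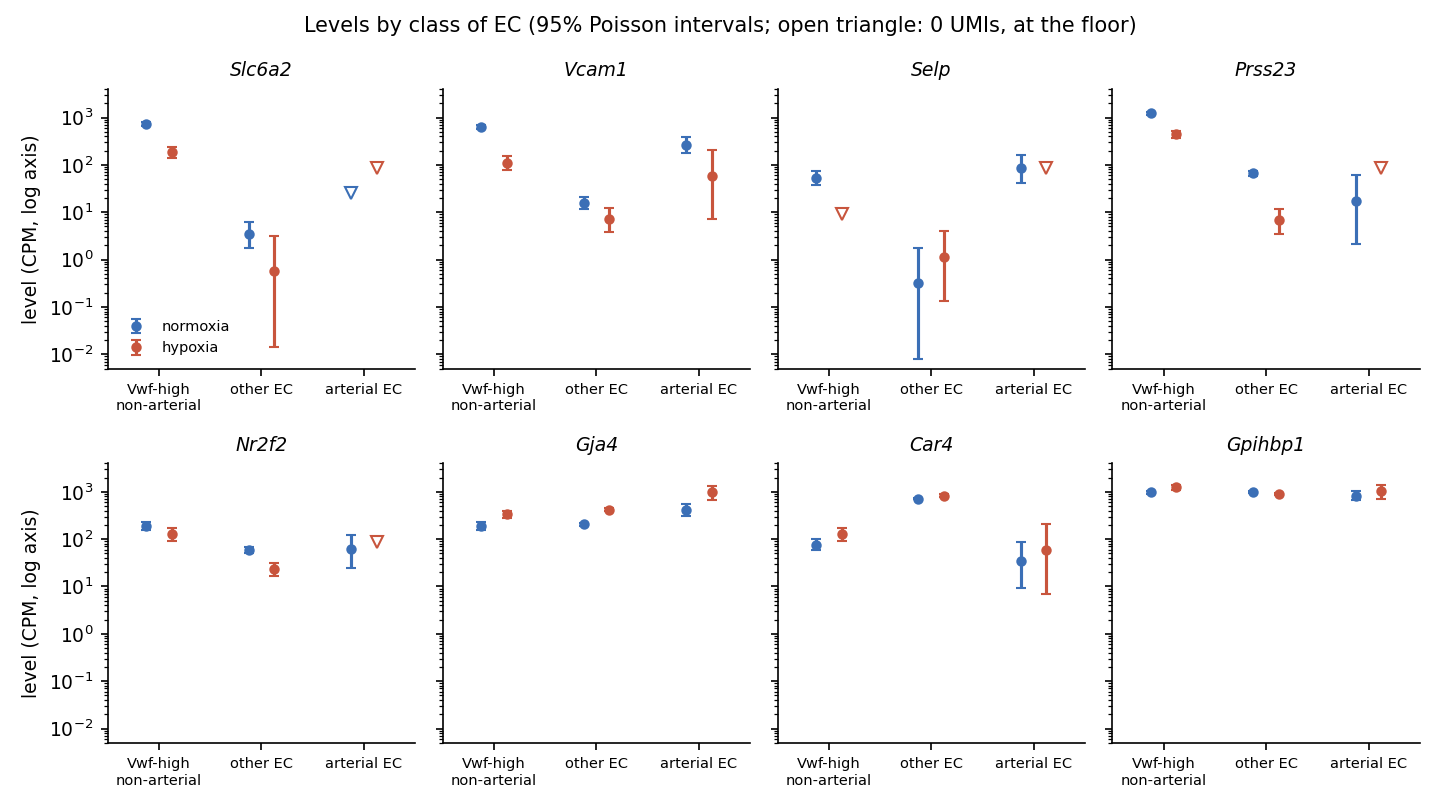
Levels of the vein genes and 5 other markers (vertical axis, CPM on a log scale) in Vwf-high, other and arterial ECs of each library. Points are summed CPM, bars exact 95% Poisson intervals and open triangles the floor of 3 counts for genes with 0 UMIs, with Slc6a2 at 727 and 185 CPM in Vwf-high ECs and at 3.46 and 0.563 CPM in other ECs.

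Aerocyte genes were low in the Vwf-high ECs. All 8 genes of an aerocyte list (Car4, Ednrb, Tbx2, Apln, Fibin, Emp2, Kdr and Chst1) were at least 2-fold lower than in other ECs in both libraries, with median log2 ratios of -2.55 and -2.08. Over all genes, 6.06% in normoxia and 6.46% in hypoxia were at least 2-fold lower. Car4, the membrane carbonic anhydrase of aerocytes, stood at 76.7 CPM against 720 CPM in normoxia (ratio 0.106) and 126 against 833 CPM in hypoxia (0.151). The endothelin receptor Ednrb had ratios of 0.154 and 0.171, the secreted peptide Apln 0.203 and 0.184 and the transcription factor Tbx2 0.187 and 0.200. Kdr, the main VEGF receptor of blood vessels, had ratios of 0.469 and 0.494, the nearest to 1 of the list.

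By the same ranking, the 10 lowest genes were Car4, Ednrb, Apln and Tbx2 with Igfbp7, Emp2, Hopx, Sept4, AW112010 and Pcolce2. Igfbp7, an insulin-like growth factor binding protein, stood at 165 against 1211 CPM in normoxia and 228 against 1265 CPM in hypoxia. The remaining 5 had ratios from 0.159 to 0.392. Single cells carried a large part of several aerocyte transcripts: without the top cell, the Ednrb ratio was 0.0837 in normoxia and 0.0411 in hypoxia and the Car4 ratio 0.0614 in hypoxia.

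Genes of general capillary ECs were at similar levels inside and outside the gate. None of 8 was 2-fold different in normoxia (median log2 ratio 0.14), and in hypoxia Plvap alone was, at 4.11 times (3.25 to 5.19). Over all genes 2.79% and 2.95% were at least 2-fold higher and 6.06% and 6.46% lower, so few of 8 would pass at those shares. Plvap, which forms the diaphragms of fenestrae and caveolae, stood at 1396 CPM in normoxia Vwf-high ECs against 913 CPM in other ECs, and at 400 against 97.4 CPM in hypoxia. Gpihbp1, the capillary anchor of lipoprotein lipase, stood at 980 and 979 CPM in normoxia and at 1231 and 889 CPM in hypoxia. As an average over its cells, the gate was thus low in aerocyte transcripts and near other ECs in general capillary transcripts. In normoxia the summed capillary list stood at 8545 CPM in its cells with 2 or 3 vein genes and 12506 CPM in those with none. In hypoxia these sums were 10910 and 10178 CPM.

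Among 10 arterial genes that the gate did not use, 9 were tested, none was 2-fold higher in Vwf-high ECs of either library, and Unc5b was 2-fold lower in both (0.368 and 0.395). Cxcl12, the most abundant of them, stood at 685 against 776 CPM in normoxia and at 2615 against 2668 CPM in hypoxia. Of 8 genes of larger vessels, all tested in normoxia, Eln, Fbln5, Ltbp4 and Bgn were at least 2-fold higher there. In hypoxia 7 were tested, with Fbln5 below the UMI minimum, and Eln, Ltbp4 and Bgn were higher and Plat lower (0.149). Over all genes 2.79% and 2.95% were higher. Eln, which encodes elastin, was 3.35 times as high in both libraries (2.73 to 4.10 in normoxia, 2.51 to 4.46 in hypoxia). Mgp, matrix Gla protein, was lower in normoxia (0.337) and 1.55 times as high in hypoxia, so its direction differed between the libraries. Arterial ECs carried more of the summed larger vessel list than Vwf-high ECs, 9148 against 2635 CPM in normoxia and 5496 against 2006 CPM in hypoxia. Set against arterial ECs, Eln was at 0.501 (0.369 to 0.690) in normoxia and 1.42 (0.625 to 3.98) in hypoxia.

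Of the lymphatic list, 6 genes were tested in normoxia. Lyve1, a hyaluronan receptor also expressed by blood vessel ECs of the lung, was at least 2-fold higher. Prox1, Mmrn1, Reln and Pdpn were at least 2-fold lower. In hypoxia 2 were tested, of which Lyve1 was higher and none lower. Over all genes 2.79% were higher and 6.06% lower in normoxia, and 2.95% and 6.46% in hypoxia. Lyve1 stood at 1249 against 378 CPM in normoxia and 572 against 76.0 CPM in hypoxia. The defining lymphatic transcription factor Prox1 and Reln were at 0 in Vwf-high ECs of both libraries, and Mmrn1 had 3 UMIs in normoxia and 0 in hypoxia. Lyve1 made up 1249 of the 1297 CPM of the summed list in normoxia.

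**Figure D4:**
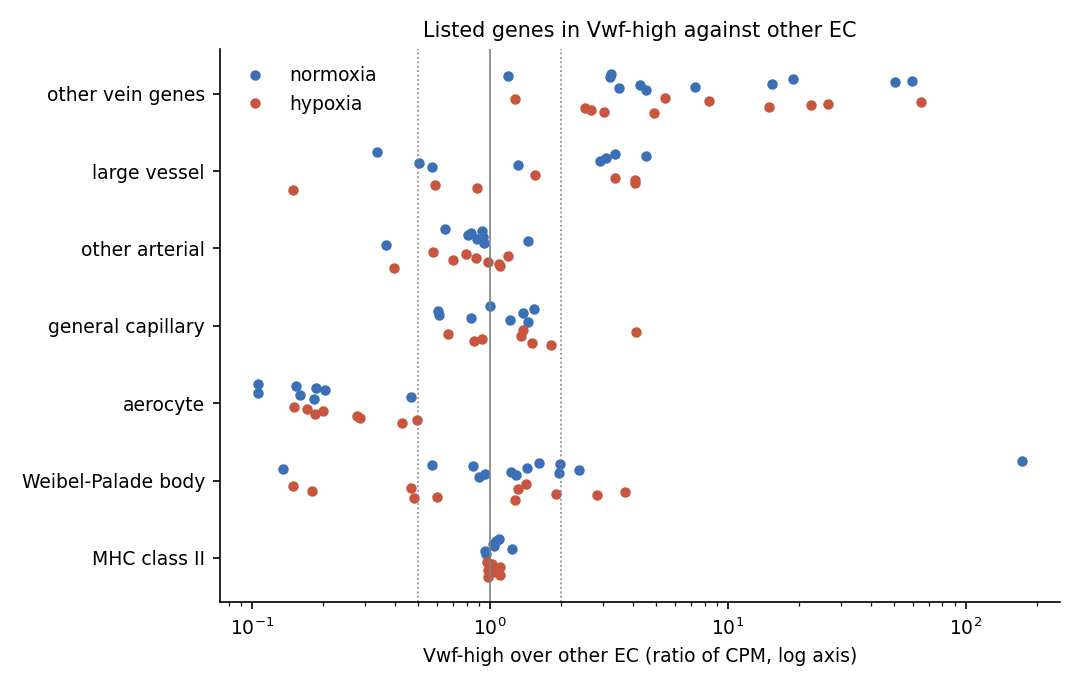
Ratio of CPM in Vwf-high over other ECs (horizontal axis, log scale) for the genes of 7 lists (vertical axis), with 1 dot for each gene of at least 30 UMIs, blue for normoxia and red for hypoxia. Dotted lines mark 0.5-fold and 2-fold, and the vein list lies mostly above the upper line and the aerocyte list wholly below the lower one.

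Genes of the Weibel-Palade body, the granule in which von Willebrand factor is stored, were past 2-fold in both directions. Vwf itself was fixed by the selection. Of 16 genes, 13 were tested in normoxia, where Selp and Rab27a were higher and Igfbp7 lower, and 11 in hypoxia, where Rab27a and Myrip were higher and Plat, Cd63, Igfbp7 and Stxbp5 lower. Over all genes 2.79% and 2.95% were higher and 6.06% and 6.46% lower. Rab27a and its partner Myrip, which hold the granule at the cell cortex, had ratios of 2.37 and 1.96 in normoxia and 3.72 and 2.82 in hypoxia. Ece1, endothelin-converting enzyme and the most abundant of the list, was 1.44 and 1.32 times as high.

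Among further haemostasis genes, 9 were tested in normoxia, where Serpine2 was higher (2.03, 1.10 to 3.63) and Plau lower. In hypoxia 7 were tested, and Plat, Plaur and F2r were among the lower ones. Over all genes 2.79% and 2.95% were higher and 6.06% and 6.46% lower. The thrombin receptor thrombomodulin, Thbd, was the most abundant, at 1751 CPM in normoxia (1.29 times other ECs) and 2596 CPM in hypoxia (1.63 times). Of 12 leukocyte adhesion genes, 9 were tested in normoxia, where Selp, Vcam1 and Jam2 were at least 2-fold higher and Cd34 lower. In hypoxia 7 were tested, of which Vcam1 was higher and Cd34 and Alcam lower. Jam2 was 2.69 times as high in normoxia and 1.62 times in hypoxia, and the sialomucin Cd34 was at 0.263 and 0.499. Icam1, the ligand of leukocyte integrins, was 1.83 and 1.61 times as high.

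Vwf-high ECs with 2 or 3 vein genes and those with none differed widely in other genes. This split was made on the vein genes after the data had been seen, and its values pool both libraries, which contribute 39 and 5 cells to the first set and 70 and 57 to the second. The first set had a median of 19 Vwf UMIs in normoxia (5 to 42) and 42 in hypoxia (12 to 77), and the second had medians of 3 (2 to 10) and 4 (2 to 32).

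Prss23 stood at 2742 CPM in the cells with 2 or 3 vein genes against 120 CPM in those with none, a ratio of 22.8 (17.8 to 29.5). Within normoxia its levels were 2778 and 134 CPM, and within hypoxia 2450 and 102 CPM. Cytl1 had 163 UMIs against 1, Ctsh (the protease cathepsin H) 86 against 1 and Ch25h (cholesterol 25-hydroxylase) 51 against 1. Cpe, a carboxypeptidase, had 76 UMIs against 3, a ratio of 53.8 (17.7 to 267). Fgl2, a fibrinogen-like protein, had 62 UMIs against 0 and was at least 43.9-fold higher. Fabp4, a fatty acid carrier, had 36 against 0 and was at least 25.5-fold higher, in 7 cells. Nr2f2 stood at 428 against 64.1 CPM in normoxia and 261 against 74.8 CPM in hypoxia, Icam1 at 1338 against 290 and 457 against 146 CPM, and Lyve1 at 1972 against 596 and 2189 against 362 CPM.

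Ptgs2, the inducible cyclooxygenase (ENSMUSG00000032487; chromosome 1, 150100031 to 150108227, plus strand), had 222 UMIs in the cells with 2 or 3 vein genes and 0 in those with none, at least 157-fold higher. Of those UMIs 221 were in normoxia and 1 in hypoxia, and a single cell held 34.9% of all normoxia Ptgs2 UMIs in the gate. Igfbp5 had 51 UMIs against 1, all 51 in normoxia.

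Several capillary and arterial transcripts were higher in the cells with no vein gene, although the summed general capillary list did not differ in 1 direction. It stood at 12506 CPM in them against 8545 CPM in the cells with 2 or 3 vein genes in normoxia, and at 10178 against 10910 CPM in hypoxia. Sparcl1, a matrix-associated glycoprotein, had 413 UMIs (710 CPM) in them and 2 UMIs in the cells with 2 or 3 vein genes, a pooled ratio of 0.0103 (0.00124 to 0.0374). Of the 413 UMIs, 334 were in hypoxia, where Sparcl1 was higher in both Vwf-high and other ECs, and within normoxia the levels were 241 and 8.23 CPM. The semaphorin Sema3g had 180 UMIs against 1 and the receptor kinase Kit, a marker of general capillary ECs, 306 against 7, ratios of 0.0118 and 0.0486. Kit stood at 580 against 28.8 CPM within normoxia and at 457 against 0 CPM within hypoxia. The arterial ligands Efnb2 and Dll4 had 248 against 7 and 77 against 0 UMIs. Gpihbp1 stood at 412 CPM in the cells with 2 or 3 vein genes against 1420 CPM in those with none in normoxia, and at 1045 against 1339 CPM in hypoxia. Plvap was lower in the former in normoxia, 1107 against 1570 CPM, and higher in hypoxia, 1209 against 272 CPM. Cells without any of the 3 vein genes made up 51.5% of the gate in normoxia and 76.0% in hypoxia, and a further 27 normoxia and 13 hypoxia cells had 1 vein gene.

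Between libraries, the 3 vein genes of the Vwf-high ECs summed to 295 CPM in hypoxia against 1403 CPM in normoxia, or 0.210 of the normoxia level (0.169 to 0.260). In other ECs the same sum was also lower in hypoxia, at 0.455 (0.245 to 0.797) of its normoxia level. Their hypoxia sum rested on 16 UMIs, of which 11 lay in 1 cell, so the size of this ratio is uncertain. Slc6a2 had a ratio of 0.254 (0.191 to 0.332) and Vcam1 of 0.178 (0.123 to 0.250). In hypoxia 1 cell held 33.3% of the Slc6a2 UMIs of the Vwf-high ECs, and a different cell held 41.7% of their Vcam1 UMIs. The ratios without the top cell of each library were 0.188 for Slc6a2 and 0.118 for Vcam1. At a fixed 1000 UMIs per cell, which left out 3 normoxia and 5 hypoxia cells below that depth, 48 of 133 normoxia cells and 14 of 70 hypoxia cells had a vein gene, against 66 of 136 and 18 of 75 before thinning. With the Vwf gate applied again to thinned counts, which left 50 normoxia and 34 hypoxia cells, the summed ratio was 0.368 (0.227 to 0.575). Among cells with at least 10 Vwf UMIs it was 0.318 (0.252 to 0.397).

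The ratio of the vein genes was nearer to 1 when cells with Ntrk2, the receptor TrkB for brain-derived neurotrophic factor, were left out. Ntrk2 was itself 34.1 times as high in the hypoxia library, so this step removed far more hypoxia than normoxia cells. At least 2 Ntrk2 UMIs were found in 40 of 75 hypoxia and 4 of 136 normoxia Vwf-high ECs. The 40 hypoxia cells held 10 UMIs of the vein genes (45.7 CPM) and the other 35 held 86 (810 CPM, 648 to 1000), against 1453 CPM (1364 to 1546) in the 132 normoxia cells with fewer than 2 Ntrk2 UMIs. Without Ntrk2-positive cells the hypoxia over normoxia ratio was 0.557 (0.442 to 0.695). Of these 35 hypoxia cells, 15 had a vein gene, as did 66 of the 132 normoxia cells.

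Of 11 other vein genes tested between libraries in Vwf-high ECs, none was 2-fold higher and 2, Prss23 and Csrp2, were 2-fold lower in hypoxia, where over 5380 genes 230 (4.28%) were higher and 281 (5.22%) lower. Prss23 had a ratio of 0.357 (0.297 to 0.427) and Csrp2, a LIM domain protein, of 0.439 (0.315 to 0.600). Amigo2 (0.974, 0.680 to 1.38) and Nrp2 (1.08, 0.685 to 1.68) had intervals on both sides of 1. Bst1 (0.532, 0.342 to 0.805), Car8 (0.569, 0.393 to 0.807) and Nr2f2 (0.663, 0.455 to 0.947) were lower in hypoxia by less than 2-fold, and Lrg1, a secreted leucine-rich glycoprotein, had a ratio of 1.84 (1.38 to 2.44). Summed, the list stood at 2267 CPM in hypoxia against 3112 CPM in normoxia, or 0.729 of it (0.669 to 0.792). Other ECs gave 1.15 (1.06 to 1.25) for the same sum, but 3 of 9 tested genes were at least 2-fold lower in them, Nr2f2 (0.393), Nrp2 (0.418) and Prss23 (0.103), and Mustn1 and Vegfc were at least 2-fold higher. Over 9637 genes tested in other ECs, 2.73% were higher and 5.79% lower by that measure.

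In the cells with 2 or 3 vein genes the other vein genes summed to 6483 CPM (6167 to 6811) in normoxia against 7088 CPM (6176 to 8097) in hypoxia, with overlapping intervals and 5 hypoxia cells. In those without a vein gene the sums were 715 and 1394 CPM. Among cells with at least 10 Vwf UMIs, 9 of 22 in hypoxia and 2 of 45 in normoxia had no vein gene, and these 9 hypoxia cells had 3961 CPM of Vwf, 3072 CPM of the other vein genes and 685 CPM of Sparcl1.

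Scaling bore on the count of genes. The median ratio over 3194 genes put hypoxia 1.12-fold above normoxia per UMI (0.17 on the log2 scale), and dividing by it gave 142 genes at least 2-fold higher and 415 at least 2-fold lower in hypoxia Vwf-high ECs, in place of 230 and 281. The summed vein gene ratio under that scaling was 0.187.

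The genes ranked highest in hypoxia over normoxia in Vwf-high ECs, by the interval bound nearest to 1, were also higher in the other ECs of the hypoxia library. Ntrk2 had a ratio of 34.1 (20.2 to 61.9) in Vwf-high and 23.9 (19.6 to 29.4) in other ECs. Cdk19, a Mediator kinase, had 19.4 and 10.0, and Sparcl1 8.47 and 6.83. Mal had 17.9 on 4 normoxia UMIs, and Tiam1, a Rac activator, had 12.1 in Vwf-high against 2.56 in other ECs.

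Wfdc1 (6.71), the taurine transporter Slc6a6 (4.76), the chemokine Cxcl12 (3.82) and the uncharacterized Gm26870 (4.20) were also among the 10 so ranked. Cd74, the invariant chain of MHC class II, had 4.71 in Vwf-high and 4.96 in other ECs. All 7 MHC class II genes were at least 2-fold higher in hypoxia in both classes, beside 4.28% and 2.73% of all genes, with summed ratios of 4.08 (3.84 to 4.33) in Vwf-high and 4.25 (4.13 to 4.37) in other ECs. Within hypoxia the summed class II level was 3560 CPM in the cells with 2 or 3 vein genes and 10772 CPM in those with none, whereas in normoxia it was 2260 and 2471 CPM.

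**Figure D5:**
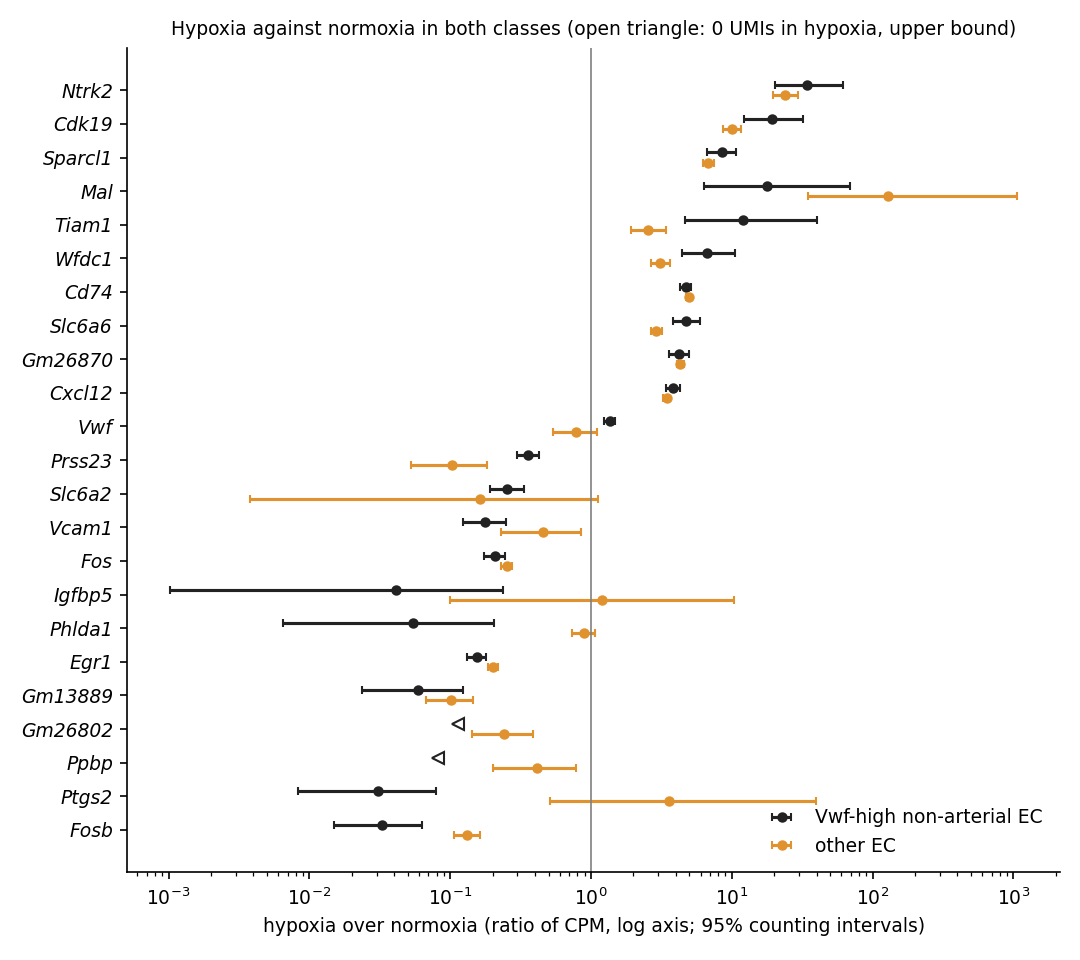
Ratio of CPM in hypoxia over normoxia (horizontal axis, log scale) in Vwf-high and other ECs for the 10 genes each way that ranked first in Vwf-high ECs by the interval bound nearest to 1, and for Vwf, Prss23 and Slc6a2. Points are ratios, bars are 95% counting intervals and open triangles stand at the upper bound of genes with 0 UMIs in hypoxia, and Ntrk2 lies at 34.1 and 23.9 and Ptgs2 at 0.0308 and 3.58.

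Among the genes lower in hypoxia were immediate-early genes, which respond within minutes to stimuli that include tissue dissociation. Of 11, 9 were at least 2-fold lower in hypoxia in Vwf-high ECs and 9 in other ECs, beside 5.22% and 5.79% of all genes tested. Fosb had ratios of 0.0329 and 0.132, Egr1 of 0.154 and 0.202 and Fos of 0.208 and 0.253. The summed list stood at 22837 CPM in normoxia and 6946 CPM in hypoxia Vwf-high ECs. Of 6 tested NF-kB response genes, 5 were at least 2-fold lower in Vwf-high ECs, with Nfkbia at 0.441 (0.368 to 0.526) and Icam1 at 0.330 (0.254 to 0.423). In other ECs 3 of 8 were, namely Nfkbiz, Icam1 and Birc3. The summed list had hypoxia over normoxia ratios of 0.410 (0.365 to 0.460) in Vwf-high and 0.511 (0.482 to 0.541) in other ECs. Vcam1 and Icam1 are themselves known NF-kB targets, and the part of these library differences in the vein gene ratios was not tested. The median mitochondrial share of a cell was 2.65% in normoxia and 1.06% in hypoxia.

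Ptgs2 had a ratio of 0.0308 (0.00834 to 0.0798) in Vwf-high ECs. In other ECs it had 4 UMIs in hypoxia against 2 in normoxia and a ratio of 3.58 (0.514 to 39.6). Phlda1 had 0.0548 in Vwf-high and 0.891 in other ECs, and Igfbp5 0.0409 on 1 hypoxia UMI. The uncharacterized Gm13889 had 0.0595, and Gm26802 was absent from hypoxia Vwf-high ECs, at least 11.1-fold lower. The platelet chemokine Ppbp was also absent there, at least 15.4-fold lower than its 142 CPM in normoxia. Vwf itself, on which the cells were chosen, had a ratio of 1.36.

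Genes of hypoxia signaling showed moderate differences. Of 9 tested targets of hypoxia-inducible factors, Ldha (2.63, 1.97 to 3.53), Pfkl (3.08, 1.82 to 5.30) and Bnip3 (3.17, 1.48 to 6.97) were at least 2-fold higher in hypoxia Vwf-high ECs. The first 2 are glycolytic enzymes and Bnip3 acts in mitophagy. Vegfa was at 0.701 (0.545 to 0.894). Over all genes 4.28% were higher in hypoxia. In other ECs, where that share was 2.73%, 5 of 13 tested targets were higher, with Ldha at 3.45 and Bnip3 at 6.35, and the peptide hormone gene Adm was lower at 0.138. No oxygen sensing gene of 5 tested passed 2-fold, with Epas1 (HIF-2α) at 0.807 (0.742 to 0.876) and Hif1a at 1.79 (1.13 to 2.81).

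In the bone morphogenetic protein receptor pathway, whose loss is the main genetic cause of pulmonary arterial hypertension, 2 of 10 tested genes were at least 2-fold lower, the co-receptor Eng at 0.434 (0.366 to 0.511) and the inhibitory Smad6 at 0.314 (0.209 to 0.456), beside 5.22% of all genes. Bmpr2 was at 0.680 (0.610 to 0.757). Other ECs had 0.486, 0.458 and 0.641 for the same 3 genes. None of 8 tested interferon-stimulated genes passed 2-fold between libraries in Vwf-high ECs, and neither of 2 tested genes of mesenchymal transition did. With 4.28% of all genes higher and 5.22% lower, so few genes could show little. In other ECs 4 of 12 tested interferon-stimulated genes were at least 2-fold higher and 3 of 7 mesenchymal transition genes lower, beside 2.73% and 5.79% of all genes. Of the cell cycle list no gene reached 30 UMIs, and its 39 hypoxia UMIs included 16 of Mki67 in 2 cells.

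Markers of other cell types were also counted in the Vwf-high ECs. The 9 platelet genes summed to 578 CPM in normoxia, led by Pf4 and 8.04 times the other ECs (6.82 to 9.49). All 7 tested genes were at least 2-fold higher, beside 2.79% of all genes tested. Normoxia cells with no vein gene held 397 of the 407 UMIs of this list. In hypoxia the platelet genes summed to 15.4 CPM in Vwf-high ECs, against 52.4 CPM in other ECs. Ppbp, Itga2b, Gp1bb, Gp9, Treml1 and Gp6 were at 0 in the hypoxia Vwf-high ECs. At least 2 platelet genes were found in 5 normoxia cells and in no hypoxia cell, and 4 of the 5 had no vein gene. Platelets also contain von Willebrand factor, and their part in the gate was not tested. Pericyte genes summed to 298 CPM in normoxia, led by Pdgfrb, and 49.2 CPM in hypoxia, where Pdgfrb, Cspg4 and Kcnk3 were at 0. In the cells with 2 or 3 vein genes they stood at 12.3 CPM in normoxia and 0 in hypoxia.

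Smooth muscle genes summed to 68.2 and 24.6 CPM, fibroblast genes to 54.0 and 6.15 CPM, leukocyte genes to 49.7 and 33.8 CPM and erythroid genes to 65.3 and 61.5 CPM. Cardiomyocyte genes stood at 7.10 CPM in normoxia and 0 in hypoxia, where all 8 were at 0, and mesothelial genes at 1.42 and 0 CPM. Of 8 leukocyte genes, Lyz2 was the most abundant in both libraries. The alveolar type 2 sum was 111 and 221 CPM, led by the surfactant gene Sftpc, which stood at 2131 CPM in other ECs of the hypoxia library. The alveolar type 1 sum was 896 and 1517 CPM, led by Clic5, which ECs also express. At least 2 alveolar type 1 genes were found in 67 of 136 normoxia and 19 of 75 hypoxia cells, against 501 of 881 and 205 of 514 other ECs, and at least 2 alveolar type 2 genes in 10 and 12 cells. Sex-linked genes summed to 192 and 157 CPM, led by the Y-linked Ddx3y. Leaving out members with at least 2 platelet, leukocyte, fibroblast, pericyte or smooth muscle genes, 13 in normoxia and 3 in hypoxia, did not move the vein gene ratio between libraries by over 1.5 times.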

How the data were processed

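The authors deposited raw UMI count matrices with 1 column per cell barcode, made with Cell Ranger 6.1.2 per the file headers and aligned to mm10 per the submitters' processing notes, which also name Seurat. The deposited counts were used unnormalized. Filters and gates were those given in the report, no doublet caller was run, and the upper limit of 4000 genes was the only guard against doublets. Counts were summed over the cells of a class and library and divided by the class total (CPM). Intervals were exact Poisson for levels, exact conditional binomial for ratios and Clopper-Pearson for shares, and a count of 0 was read against 3 counts. Genes needed 30 UMIs over the 2 classes compared, and "2-fold" counts are descriptions without a test. Beside listed genes, 10 genes each way were named per comparison, ranked by the interval bound of the ratio nearest to 1. Against other ECs this was the weaker bound of the 2 libraries, for genes in at least 10 Vwf-high ECs. Otherwise the higher side needed the gene in at least 5 cells, with no cell holding most of its UMIs. With 1 library per condition no test or SD was possible. The cells and the 31 lists (258 genes, 2 not found among the gene names) were chosen with earlier results of these data known. Positions are from the GRCm38 gene annotation. The intervals were tested on simulated data. Alternatives were other gene, mitochondrial, Vwf, endothelial and arterial limits, thinning to 1000 UMIs, other minima, median-ratio scaling and leaving out cells. Python 3.11.15, numpy 2.4.6, scipy 1.17.1, pandas 2.3.3 and matplotlib 3.10.9 were used. One listed gene is not reported here.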

Additional observations from a re-analysis of the deposited data

Results flagged for a closer look

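Cells that met the Vwf, endothelial and arterial limits but not the filters on quality also carried vein genes. In normoxia, 46 such cells had over 5% mitochondrial UMIs, and the 3 vein genes summed to 977 CPM in them (102 UMIs, 797 to 1187), with a vein gene in 21. A further 5 normoxia cells had over 4000 genes, and their sum was 400 CPM (35 UMIs, 278 to 556). Other ECs within the filters stood at 19.8 CPM. The hypoxia library held 4 and 1 such cells, with 2 UMIs of the vein genes in each set.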

How the results depend on the processing

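No paired analysis was possible because 1 library was compared with 1 library. The share of Vwf-high ECs among ECs, 13.1% in normoxia and 12.6% in hypoxia, was 10.4% in normoxia at 3 or more Vwf UMIs, 7.14 and 6.87% at 5 or more, 10.9 and 9.38% with no arterial gene allowed, 5.86 and 7.17% with the gate applied after thinning to 1000 UMIs, and 4.34 and 3.69% at 10 or more, a limit chosen after seeing the data. The summed vein genes in Vwf-high over other ECs, 70.9 in normoxia and 32.8 in hypoxia, were in normoxia 39.6 with up to 6000 genes, 106 with 3 of 4 endothelial genes, 105 with no arterial gene, 114 without cells carrying other cell types' genes, 27.4 after thinning and 31.7 at 10 or more Vwf UMIs. In hypoxia they were 74.2 as a mean over cells, 161 after thinning and 75.9 at 10 or more Vwf UMIs. The value of 32.8 rested on 16 UMIs in other ECs, 11 of them in 1 cell. Their hypoxia over normoxia ratio, 0.210, was 0.557 without Ntrk2-positive cells, 0.368 after thinning and 0.318 at 10 or more Vwf UMIs, and it was 0.180 without the top cell of each library and 0.200 without cells carrying platelet, leukocyte, fibroblast, pericyte or smooth muscle genes, both also chosen after seeing the data. It lay below 1 under all 14 alternatives.

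Counts of genes past 2-fold moved most with the UMI minimum. With a minimum of 100 UMIs, 83 genes were higher and 171 lower in Vwf-high than in other ECs in normoxia, 37 and 107 in hypoxia, and 62 higher and 81 lower in hypoxia than normoxia. With no minimum above 1 UMI these were 1629 and 4140, 1616 and 3924, and 2131 and 3124. At 5 or more Vwf UMIs the lower genes numbered 957 in normoxia and 730 in hypoxia, and the higher ones 395 in hypoxia. Without the 78 normoxia and 28 hypoxia cells carrying other cell types' genes by 7 lists, 1210 were lower in normoxia, 370 higher and 763 lower in hypoxia, and 150 lower in hypoxia than normoxia. Median-ratio scaling gave 142 genes higher in hypoxia, and leaving out Ntrk2-positive cells gave 501 lower. Of 145 single-gene values recomputed without the top cell, 113 stayed within the interval of the original value and 30 moved out of it. A further 2 changed direction: hypoxia over normoxia for Car4 went from 1.64 to 0.885 and for Igfbp7 from 1.38 to 0.979. The causes were not tested. Depth limits Selp, with 38 UMIs in all, and hypoxia values rest on few cells, 5 of them with 2 vein genes.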
